A study of Homo sapiens with 12 samples.

Results

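The 8 HEK293T ribosome profiling libraries described here, of 12 libraries in the series, form 4 matched pairs, each with 1 library labelled as an immunoprecipitation (IP) of the cap-binding protein CBP80 and 1 labelled as an IP of eIF4E. They were taken by their titles, and the 2 libraries of a pair carry the same siRNA and the same set number. The comparison asks which coding sequences had different ribosome footprint counts on mRNAs recovered with CBP80 than on mRNAs recovered with eIF4E. All 8 libraries come from HEK293T cells, a line derived from human embryonic kidney, treated with sodium arsenite, an oxidative stressor. The groups are CBP80 IP with siRNA to eIF2A, eIF4E IP with siRNA to eIF2A, CBP80 IP with control siRNA and eIF4E IP with control siRNA, each with 1 library in set 1 and 1 in set 2. eIF2A is a protein that can bring initiator tRNA to ribosomes and is distinct from the eIF2 complex. The labels give neither a dose or time of arsenite nor an input or unspecific IP. Nor do they say that each set was a culture of its own, so the spread between libraries may be technical. The p-values of the main gene tests rest on that spread, mostly as shared across genes, and those of the chi-square tests on counting error alone. The remaining 4 libraries are from H9 embryonic stem cells with no IP and enter no comparison.

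Every mRNA made by RNA polymerase II carries a methylated guanosine cap at its 5′ end. In the nucleus the cap is bound by the cap-binding complex, made of CBP80 (gene NCBP1) and CBP20 (gene NCBP2), which stays on new mRNAs during splicing and export and can support their first translation through the adaptor CTIF. In the cytoplasm eIF4E takes over the cap and, with the scaffold eIF4G and the helicase eIF4A, forms eIF4F, which recruits ribosomes in most translation of resting and growing cells.

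The libraries held 5066081 to 5684101 coding reads with the CBP80 label and 4331459 to 5775177 with the eIF4E label. EIF2A, the gene the siRNA targets, had 93.8 and 45.3 CPM (counts scaled to 1000000 coding reads) with the CBP80 label in eIF2A siRNA sets 1 and 2, against 82.7 and 81.3 CPM in the control siRNA sets. With the eIF4E label it had 98.4 and 48.0 CPM with eIF2A siRNA, against 83.8 and 86.1 CPM with control siRNA. It was thus low in set 2 and not in set 1 of the libraries labelled eIF2A siRNA, so the siRNA names used below are those of the labels. Between the IP labels EIF2A differed by -0.06 ± 0.050 (log2, SE, edgeR adjusted p = 0.992). The 6 genes chosen as HEK293T markers (VIM, LIN28B, NEFM, NEFL, INA and PAX2) were all at 1 CPM or more, with sums of 761 to 866 CPM with CBP80 and 766 to 896 CPM with eIF4E. POU5F1, LIN28A and CRIPTO, which mark pluripotent cells, had 0 reads in all 8 libraries. Of the blood and endothelial markers none reached 1 CPM, and HBA1 and PECAM1 had 0 reads. The 5 fibroblast markers summed to 17.3 to 21.7 CPM with CBP80 and 18.6 to 22.4 CPM with eIF4E. The hepatocyte genes ALB and APOA1 summed to 75.4 CPM with CBP80 and 74.8 CPM with eIF4E in eIF2A siRNA set 1, and to at most 22.3 and 21.3 CPM in the other pairs, so they moved with the pair and not with the IP label.

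Across the transcriptome the CBP80 and eIF4E libraries of a pair were nearly the same. A chi-square test of the counts of both libraries, over the 11129 to 11493 genes with at least 20 reads in a pair, gave 1.02 per degree of freedom in each of the eIF2A siRNA sets (p = 0.0604 in set 1 and 0.0466 in set 2), where a value of 1 is sampling noise. In the control siRNA sets the value was 1.008 in set 1 (chi-square over genes, p = 0.268) and 1.028 in set 2 (p = 0.0192). The p-value was thus under 0.05 only in set 2 of each siRNA, and the highest of the 4 values was 1.028. Libraries of the same IP and siRNA from different sets gave 3.95 to 5.52, and libraries of the same IP and set with different siRNAs gave 8.52 to 9.42. Set and siRNA label thus separated the libraries far more than the IP label did. Since the libraries of a pair carry different IP labels, they were kept as separate samples. The counting error that these tests use covers sampled reads only, since the labels name no molecular identifiers.

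The log2 ratios of CBP80 over eIF4E were little correlated from pair to pair, but they were mostly counting error. Over the 6626 genes with a mean of at least 20 CPM, Pearson's r between the ratios of any 2 pairs ran from -0.01 to 0.05, as a description across genes in pairs that share no library. Over the 2185 genes of at least 100 CPM it ran from 0.01 to 0.05. The highest value in both sets of genes was between the eIF2A siRNA sets. With TUSC3, TMEM259 and H3C1 left out, the range at 20 CPM or more was -0.02 to 0.04.

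In the pooled paired test 5 genes, TUSC3, HSF5, OR4K15, TMEM259 and SHISA8, were lower with CBP80 than with eIF4E, and no gene was higher. The test was edgeR's quasi-likelihood test with the pair as a block, and 5 of 11778 genes, 0.0425%, passed an adjusted p of 0.05. At an unadjusted p under 0.05 there were 594 genes, or 5.04% of those tested. All 5 were lower with CBP80 in 4 of 4 pairs, a direction that 724 of all genes tested (6.15%) also had, against 767 (6.51%) that were higher with CBP80 in 4 of 4 pairs. In TUSC3, HSF5 and SHISA8 all 4 CBP80 libraries lay below all 4 eIF4E libraries, as in 34 genes of all tested (0.289%). All 4 CBP80 libraries lay above the eIF4E libraries in 40 genes (0.34%), none of which passed the test.

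**Figure D1:**
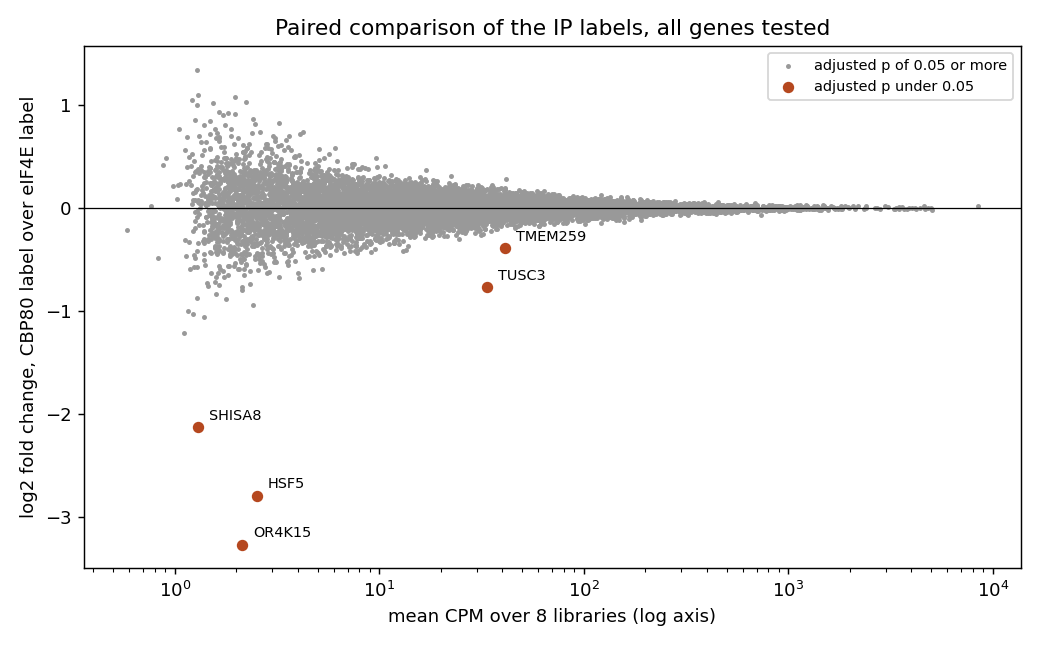
Each point is 1 of the 11778 genes tested, with its mean CPM over the 8 libraries on a log axis and its log2 fold change of CBP80 over eIF4E in the paired fit. The spread of the grey points narrows with the read level, and the 5 genes past an adjusted p of 0.05 (red) all lie below 0.

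TUSC3 (NM_006765) had the smallest p. It encodes a subunit of the oligosaccharyltransferase, the enzyme that attaches sugar chains to asparagines of proteins entering the endoplasmic reticulum (ER), where TUSC3 acts as a thioredoxin-like subunit that its paralogue MAGT1 can replace. TUSC3 had 30.4 and 20.1 CPM with CBP80 in eIF2A siRNA sets 1 and 2, against 58.8 and 35.2 CPM with eIF4E. In control siRNA sets 1 and 2 it had 21.5 and 27.5 CPM with CBP80, against 38.7 and 36.5 CPM with eIF4E. The lowest eIF4E library was thus above the highest CBP80 library, and the means were 24.9 ± 4.88 CPM with CBP80 and 42.3 ± 11.1 CPM with eIF4E (SD, n = 4 each). The read counts were 154 against 279 and 108 against 203 with eIF2A siRNA, and 122 against 220 and 142 against 158 with control siRNA. The ratio of CBP80 to eIF4E was 0.517 (95% exact binomial interval 0.422 to 0.632) and 0.573 (0.449 to 0.727) in the eIF2A siRNA sets, and 0.555 (0.441 to 0.696) and 0.753 (0.596 to 0.951) in the control siRNA sets. Every interval lay below 1. The fitted difference was -0.77 ± 0.080 on the log2 scale (SE), a level 1.71-fold lower with CBP80 (edgeR, adjusted p = 2.46e-12). The H9 libraries, which had no IP, held TUSC3 at 91.6 and 64.0 CPM with eIF2A shRNA and at 92.6 and 79.4 CPM with control shRNA.

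MAGT1, the paralogue of TUSC3, did not pass the test. It had 547 and 644 CPM with CBP80 in the eIF2A siRNA sets, against 556 and 627 CPM with eIF4E, and 755 and 753 CPM with CBP80 in the control siRNA sets, against 735 and 740 CPM with eIF4E. The groups overlapped, and the fitted difference was 0.02 ± 0.018 (log2, SE, edgeR adjusted p = 0.992). Of the 13 oligosaccharyltransferase genes, TUSC3 alone passed the test. 8 of the 13 had a fitted value above 0 and 5 below, with a median of 0.01 (log2) beside a median of -0.00064 over all genes tested.

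HSF5 (NM_001080439) encodes a member of the heat shock factor family that is known, in mouse and zebrafish, for its role in the male germ line. It had 4 and 3 reads with CBP80 in the eIF2A siRNA sets, against 32 and 15 reads with eIF4E, and 5 and 1 reads with CBP80 in the control siRNA sets, against 24 and 18 with eIF4E. In CPM these are 0.79, 0.56, 0.88 and 0.19 with CBP80, against 6.74, 2.60, 4.22 and 4.16 with eIF4E, in the same order. The highest CBP80 library had less than the lowest eIF4E library. The fitted difference was -2.79 ± 0.34 (log2, SE), or 6.93-fold lower with CBP80 (edgeR, adjusted p = 1.87e-09). No read of HSF5 was counted in the H9 libraries, where 3 reads over all 4 would be 0.508 CPM.

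OR4K15 (NM_001005486) belongs to the olfactory receptors, a large multigene family, and reads with more than 1 alignment are not in its counts. It had 3 and 3 reads with CBP80 in eIF2A siRNA sets 1 and 2, against 34 and 39 reads with eIF4E. In control siRNA sets 1 and 2 it had 2 and 0 reads with CBP80, against 3 and 5 reads with eIF4E. The 2 eIF4E libraries with eIF2A siRNA, at 7.16 and 6.75 CPM, thus stood above the other 6 libraries, which had 0 to 1.15 CPM, and the IP groups overlapped. The fitted difference over all 4 pairs was -3.27 ± 0.40 (log2, SE), or 9.63-fold lower with CBP80 (edgeR, adjusted p = 1.87e-09). By DESeq2 the adjusted p was 0.121. OR4K15 was too low to be tested in the control siRNA pairs alone, and without either eIF2A siRNA pair it did not pass the filter on low counts.

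TMEM259 (NM_001033026) encodes membralin, a membrane protein of the ER. It had 48.2 and 35.4 CPM with CBP80 in the eIF2A siRNA sets, against 59.4 and 46.9 CPM with eIF4E, and 28.5 and 30.4 CPM with CBP80 in the control siRNA sets, against 37.4 and 42.5 CPM with eIF4E. It was lower with CBP80 within each pair, while the groups overlapped across pairs, with means of 35.6 ± 8.86 CPM with CBP80 and 46.6 ± 9.40 CPM with eIF4E (SD, n = 4 each). The fitted difference was -0.39 ± 0.069 (log2, SE), or 1.31-fold lower with CBP80 (edgeR, adjusted p = 0.000493). By DESeq2 the fold was -0.39 with an adjusted p of 0.9999, and without eIF2A siRNA set 2 edgeR's adjusted p was 0.0895. Over all 11778 genes, DESeq2's pooled fit had 17 at an unadjusted p under 0.05, against 594 by edgeR.

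SHISA8 (NM_001207020) is a member of the Shisa family of single-pass membrane proteins. It had 2 and 2 reads with CBP80 in the eIF2A siRNA sets, against 14 and 13 reads with eIF4E, and 3 and 3 reads with CBP80 in the control siRNA sets, against 11 and 6 with eIF4E. All CBP80 libraries were at 0.37 to 0.58 CPM, below all eIF4E libraries, which were at 1.39 to 2.95 CPM. The fitted difference was -2.13 ± 0.43 (log2, SE), or 4.37-fold lower with CBP80 (edgeR, adjusted p = 0.00552). SHISA8, HSF5 and OR4K15 all reached the filter on low counts through their eIF4E libraries, where they were high. With no filter edgeR's adjusted p was 0.076 for SHISA8, 7.49e-06 for HSF5 and 1.66e-05 for OR4K15. The adjusted p of SHISA8 was 0.594 without eIF2A siRNA set 1, 0.0506 without control siRNA set 1 and 0.9999 by DESeq2. SHISA8 passed in 7 of the 12 alternative settings that tested it, OR4K15 in 9 of 10, TMEM259 in 11 of 14, TUSC3 in 13 of 14 and HSF5 in 13 of 13. SHISA8 and OR4K15 also had 0 reads in the H9 libraries.

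**Figure D2:**
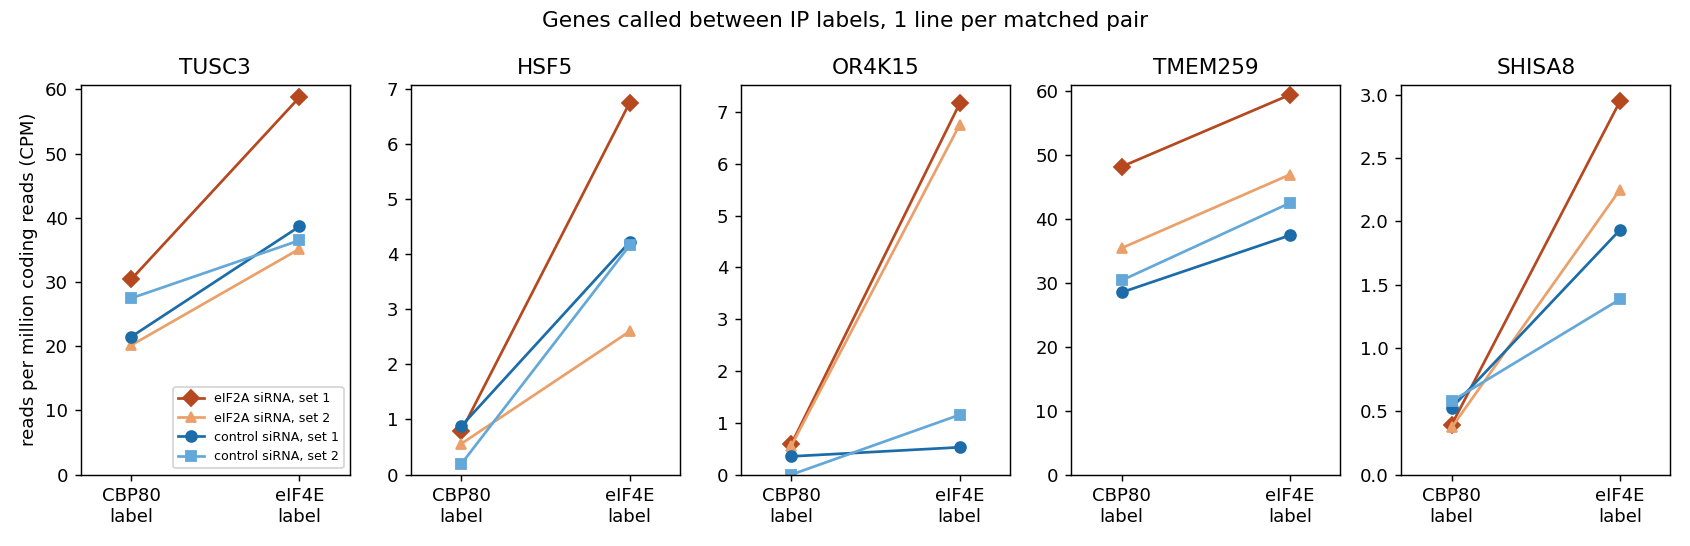
CPM of TUSC3, HSF5, OR4K15, TMEM259 and SHISA8 in each library, with the CBP80 label left of the eIF4E label and a line joining the 2 libraries of each pair (eIF2A siRNA red and orange, control siRNA blue). Every CBP80 point lies below the eIF4E point of its pair, and OR4K15 reaches 7.16 CPM with eIF2A siRNA but not more than 1.15 CPM with control siRNA.

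TUSC3 and HSF5 passed with each siRNA tested on its own. TMEM259 passed with neither (edgeR adjusted p = 0.308 with eIF2A siRNA and 0.261 with control siRNA), and SHISA8 had an adjusted p of 0.0702 with eIF2A siRNA and, like OR4K15, was too low to be tested with control siRNA. With eIF2A siRNA, 4 of 11542 genes passed (0.0347%), all lower with CBP80, namely TUSC3, OR4K15, HSF5 and SLC3A1. With control siRNA, 2 of 11439 genes passed (0.0175%), TUSC3 and HSF5, both lower with CBP80. TUSC3 differed by -0.89 ± 0.11 with eIF2A siRNA and -0.64 ± 0.12 with control siRNA (log2, SE, edgeR adjusted p = 3.10e-12 and 0.000711). HSF5 differed by -2.73 ± 0.49 with eIF2A siRNA and -2.86 ± 0.50 with control siRNA (adjusted p = 9.63e-05 and 0.000266). The test of whether the difference itself differed between siRNAs called 0 of 11778 genes (0.0%) by edgeR, by DESeq2 and with counting error only. At an unadjusted p under 0.05 that test had 531 genes by edgeR, 590 with counting error only and 1 by DESeq2.

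SLC3A1 passed only with eIF2A siRNA. It encodes the heavy chain of the cystine and dibasic amino acid transporter of kidney and intestine. It had 24 and 9 reads with CBP80 in the eIF2A siRNA sets, against 47 and 33 reads with eIF4E, and 18 and 15 reads with CBP80 in the control siRNA sets, against 11 and 11 reads with eIF4E. It was lower with CBP80 in both eIF2A siRNA sets (log2 difference -1.29 ± 0.29, SE, edgeR adjusted p = 0.0347), and its values with control siRNA ran the other way (0.46 ± 0.39, adjusted p = 0.999). The interaction of IP and siRNA had an unadjusted p of 0.000718 and an adjusted p of 0.989, so the difference between siRNAs did not hold over all genes tested. SLC3A1 had 0 reads in the H9 libraries.

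RHOT1, which encodes a GTPase of the outer mitochondrial membrane that links mitochondria to motor proteins, had 35.9 and 31.0 CPM with CBP80 in the eIF2A siRNA sets, against 42.5 and 37.2 CPM with eIF4E. In the control siRNA sets it had 19.2 and 19.3 CPM with CBP80, against 19.9 and 13.2 CPM with eIF4E. The libraries separated by siRNA, not by IP. The pooled difference of CBP80 over eIF4E was -0.11 ± 0.088 (log2, SE, edgeR adjusted p = 0.992), and the interaction with siRNA had an unadjusted p of 0.0193 and an adjusted p of 0.989.

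No gene was higher with CBP80 at the threshold. The smallest p among the higher genes was that of DVL1, which encodes dishevelled 1, an adaptor of Wnt signalling. DVL1 had 52.3 and 40.6 CPM with CBP80 in the eIF2A siRNA sets, against 42.8 and 39.0 CPM with eIF4E, and 44.2 and 45.3 CPM with CBP80 in the control siRNA sets, against 35.0 and 32.6 CPM with eIF4E. It was above its eIF4E partner in 4 of 4 pairs, while the groups overlapped, and the fitted difference was 0.28 ± 0.070 (log2, SE, edgeR adjusted p = 0.178). The next higher genes by p, with log2 differences of 0.31 to 1.34 and adjusted p of 0.728 to 0.835, were EMX2, PIN4, RASGRP1, KCNMB4, RMC1, BST2, PRICKLE2, MYH3 and A1BG. EMX2, a homeobox gene of the urogenital tract and cortex, had 19 and 16 reads with CBP80 in the eIF2A siRNA sets, against 4 and 8 with eIF4E, and 16 and 13 with CBP80 in the control siRNA sets, against 11 and 7 with eIF4E. Among genes under 1 CPM, TMEFF1 and SLC38A5 had the largest differences relative to counting error over the 4 pairs. Too low to test, they had 19 and 23 reads in all with CBP80, against 2 and 4 with eIF4E.

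Below the called genes on the lower side, H3C1, a replication-dependent histone H3 gene, was not called in the pooled paired fit but was called when counting error alone was assumed. That test called 6 of 11778 genes (0.0509%), the 5 above and H3C1. H3C1 had 699 and 703 CPM with CBP80 in the eIF2A siRNA sets, against 698 and 747 CPM with eIF4E, and 693 and 790 CPM with CBP80 in the control siRNA sets, against 734 and 847 CPM with eIF4E. It was lower with CBP80 in 3 of 4 pairs, with overlapping groups and a fitted difference of -0.07 ± 0.017 (log2, SE, edgeR adjusted p = 0.178, and 0.04996 with counting error only). It was also called without eIF2A siRNA set 1 (edgeR adjusted p = 0.0474), the pair in which its libraries were closest. CHD7, a chromatin remodeller, followed with -0.14 ± 0.035 (adjusted p = 0.261), and then RFC5, NUDC and TES with -0.11 to -0.15 (adjusted p = 0.728), all lower with CBP80 in 4 of 4 pairs.

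The IP labels could be told apart at different sizes of difference at different read levels, so the genes were split by their mean CPM. From 1 to 5 CPM, where a gene had a median of 102 reads over the 8 libraries, 3 of 1867 tested genes were called, namely HSF5, OR4K15 and SHISA8. Their differences were -2.13 to -3.27, with SEs of 0.34 to 0.43 (log2). The median 95% half-width over all tested genes of this range was 0.52. From 5 to 20 CPM, 0 of 3279 genes passed by edgeR, with 148 (4.51%) at an unadjusted p under 0.05. PIN4, with 0.37 (log2), and LGALSL, with -0.42, had the largest differences relative to counting error there (edgeR adjusted p = 0.728 for both). From 20 to 100 CPM, 2 of 4441 genes passed, TUSC3 and TMEM259, where the median half-width was 0.14.

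From 100 CPM upward no gene passed. Of the 1865 genes from 100 to 500 CPM, 108 (5.79%) had an unadjusted p under 0.05 and the median difference in either direction was 0.023 (log2). Of the 320 genes of 500 CPM or more, 17 (5.31%) had one, and the median difference was 0.011. The 6 most abundant genes show how close the labels were. NCL, which encodes the nucleolar protein nucleolin, had a mean of 8509 ± 508 CPM with CBP80 and of 8412 ± 520 CPM with eIF4E (SD, n = 4 each), a difference of 0.02 ± 0.0055 (log2, SE, adjusted p = 0.930). EEF2, the elongation factor that moves the ribosome along, had 5044 ± 349 CPM with CBP80 and 5096 ± 381 CPM with eIF4E, and a difference of -0.02 ± 0.0071 (adjusted p = 0.970). RPS3 and RACK1 of the small ribosomal subunit, the helicase gene DDX5 and the actin gene ACTG1 differed by -0.01 to 0.02.

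For most expressed genes the intervals leave little room for a large difference. The 95% interval of the fitted log2 difference lay within 1 log2 unit of 0 in all 9905 genes of 5 CPM or more. Of the called genes these include TUSC3 and TMEM259, but not HSF5, OR4K15 and SHISA8, which had 1 to 5 CPM. The interval lay within 0.2 log2 units in 4847 of the 6626 genes of 20 CPM or more (73.2%). From 100 CPM upward this held in 2181 of the 2185 genes. Between 1 and 5 CPM the interval lay within 1 log2 unit in 1605 of 1867 genes (86.0%), with a median half-width of 0.52. Changes well below that width could not be told from counting error at this depth. A further 4474 genes had reads but under 1 CPM, and only 6 of these could be tested.

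Split by expression range, the excess over sampling noise passed an adjusted p of 0.05 only in the most abundant genes of set 2. The chi-square over all ranges was also taken with the 20 most abundant genes left out. Per degree of freedom it was then 1.022 in eIF2A siRNA set 2 and 1.026 in control siRNA set 2. With them it was 1.022 and 1.028. So few genes can hardly move a value over all ranges, and the range of 500 CPM or more was not recomputed without them. Whether the excess lay at the very top was thus not tested. Among the 320 genes of 500 CPM or more, the chi-square per degree of freedom was 1.25 in eIF2A siRNA set 2 (adjusted p = 0.0273 over 20 tests of range and pair) and 1.23 in control siRNA set 2 (adjusted p = 0.0304). In eIF2A siRNA set 1 it was 0.975 and in control siRNA set 1 it was 1.12 (adjusted p = 0.683 and 0.228). The ranges from 1 to 500 CPM gave 0.975 to 1.07, with adjusted p of at least 0.135. Below 1 CPM at most 11 genes of a pair had the 20 reads the test needs, and that range was left out of the adjustment. In size this was small: the root mean square log2 ratio was 0.034 in eIF2A siRNA set 2, against 0.030 from counting error, and 0.034 in control siRNA set 2, against 0.033.

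**Figure D3:**
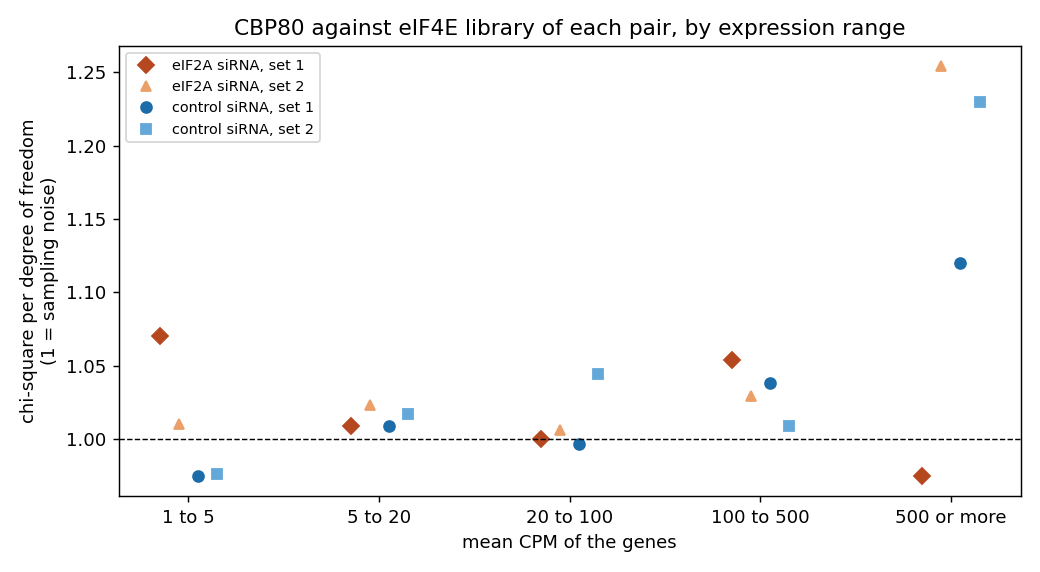
Chi-square per degree of freedom between the CBP80 and the eIF4E library of each pair, by the mean CPM of the genes, with a dashed line at 1 for sampling noise. The points lie between 0.975 and 1.07 from 1 to 500 CPM, and above that the set 2 pairs stand at 1.25 (eIF2A siRNA) and 1.23 (control siRNA).

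None of the genes of the cap-binding proteins themselves passed the test. NCBP1, which encodes CBP80, had 140 and 126 CPM with CBP80 in the eIF2A siRNA sets, against 135 and 120 CPM with eIF4E, and 120 and 100 CPM with CBP80 in the control siRNA sets, against 122 and 102 CPM with eIF4E. The difference was 0.02 ± 0.040 (log2, SE, edgeR adjusted p = 0.994), and NCBP2, which encodes CBP20, had the same difference with an SE of 0.033. EIF4E had few reads, at 7.50 and 8.39 CPM with CBP80 in the eIF2A siRNA sets, against 8.43 and 9.35 CPM with eIF4E, and 6.16 and 8.51 CPM with CBP80 in the control siRNA sets, against 7.38 and 6.23 CPM with eIF4E. Its difference of -0.05 ± 0.16 (adjusted p = 0.996) was the least precise of the 3. These counts are of ribosomes on each gene's own mRNA and do not measure the proteins that were immunoprecipitated.

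17 gene lists were described by counts, beside 5843 genes above 0 and 5935 below 0 over all genes tested, of which 0.0425% were called. In 16 of the lists no member passed the test, and in the oligosaccharyltransferase list TUSC3 did. Of the nuclear cap-binding complex and its partners, 9 of 13 tested members were above 0 and 4 below, with a median of 0.01 (log2), and 0 had an unadjusted p under 0.05. CTIF, the adaptor of CBP80-dependent translation, had 0.18 ± 0.10 (adjusted p = 0.992), and ALYREF, an mRNA export factor, had 0.04 ± 0.020 (adjusted p = 0.983). Of eIF4F and its regulators, 10 of 21 were above 0 and 11 below, with a median of -0.00098, and 0 had an unadjusted p under 0.05. EIF4EBP1, the repressor that binds eIF4E, had -0.07 ± 0.048, and EIF4G1, the scaffold, had 0.01 ± 0.014 (adjusted p = 0.992 for both).

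CBP80-bound mRNAs are known as substrates of nonsense-mediated decay, which removes mRNAs with early stop codons with help of exon junction complexes. Of the 11 exon junction complex genes tested, 7 were above 0 and 4 below. MAGOHB, a core subunit, had -0.13 ± 0.059 and was the 1 member with an unadjusted p under 0.05 (adjusted p = 0.960). Of 16 decay factors, 6 were above 0 and 10 below, with a median of -0.02. GSPT1, the termination factor eRF3a, had -0.12 ± 0.037 (adjusted p = 0.898), and SMG8, a regulator of the SMG1 kinase, had -0.07 ± 0.029 (adjusted p = 0.954). UPF1, the central helicase of the pathway, had -0.05 ± 0.033 (adjusted p = 0.992). Of 25 known decay targets, 12 were above 0 and 13 below, and 0 had an unadjusted p under 0.05.

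No gene in the lists of transcripts with special 5′ or 3′ ends passed the test. Replication-dependent histone mRNAs, which end in a stem-loop and not a poly(A) tail and many of which have near-identical copies, were above 0 in 23 of 46 tested members and below in 23, with a median of 0.00070. 4 of the 46 had an unadjusted p under 0.05, H3C1, H2AC15, H3C12 and H4C8, at -0.07, -0.18, -0.07 and 0.03. The mRNAs of ribosomal proteins, which start with a pyrimidine tract (5′ TOP), were above 0 in 34 of 75 tested members and below in 41, with a median of -0.0027. Among them RPL12 had 0.11 and RPL5 had 0.03, both with an unadjusted p under 0.05. Of 18 other translation genes with 5′ TOP, 8 were above 0 and 10 below, and EEF2 and RACK1 had an unadjusted p under 0.05. Of 15 growth genes known to depend on eIF4E, 10 were above 0 and 5 below. VEGFA, the angiogenic growth factor, had 62 and 46 reads with CBP80 in the eIF2A siRNA sets, against 65 and 70 reads with eIF4E, and 59 and 62 reads with CBP80 in the control siRNA sets, against 63 and 72 reads with eIF4E. That is a difference of -0.30 ± 0.13 (log2, SE, edgeR adjusted p = 0.954) with values that overlap in CPM.

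No gene in the lists of the stress response passed the test. Of 30 ATF4 targets, which the integrated stress response induces, 17 were above 0 and 13 below, of 19 heat shock genes 13 and 6, and of 20 metal and redox stress genes 11 and 9, and in each of the 3 lists 0 had an unadjusted p under 0.05. HMOX1, which encodes the haem-degrading enzyme that arsenite induces, had 0.04 ± 0.043 (log2, SE, adjusted p = 0.992), and SQSTM1, a selective autophagy receptor, had 0.05 ± 0.055. Of 27 immediate early genes, 14 were above 0 and 13 below, with KLF6 at 0.16 ± 0.070 (adjusted p = 0.954). MYC, the growth transcription factor, had 0.03 ± 0.023 (adjusted p = 0.992). Of 21 ER chaperones, 9 were above 0 and 12 below.

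The genes of mitochondrial dynamics and of stress granules complete the lists, and none passed the test. Of 17 mitochondrial dynamics genes, 10 were above 0 and 7 below, with a median of 0.04 (log2) and values of 0.01 to 0.08 in the 4 pairs. DNM1L, the GTPase of mitochondrial fission, had 0.16 ± 0.057 (adjusted p = 0.930), and TRAK2, a motor adaptor, had 0.24 ± 0.11 (adjusted p = 0.974). Of 20 stress granule genes, 4 were above 0 and 16 below, with a median of -0.01 and values of -0.01 to -0.03 in the 4 pairs. NUFIP2 had -0.10 ± 0.038 (adjusted p = 0.930), and ATXN2L ran the other way with 0.08 ± 0.037 (adjusted p = 0.974).

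**Figure D4:**
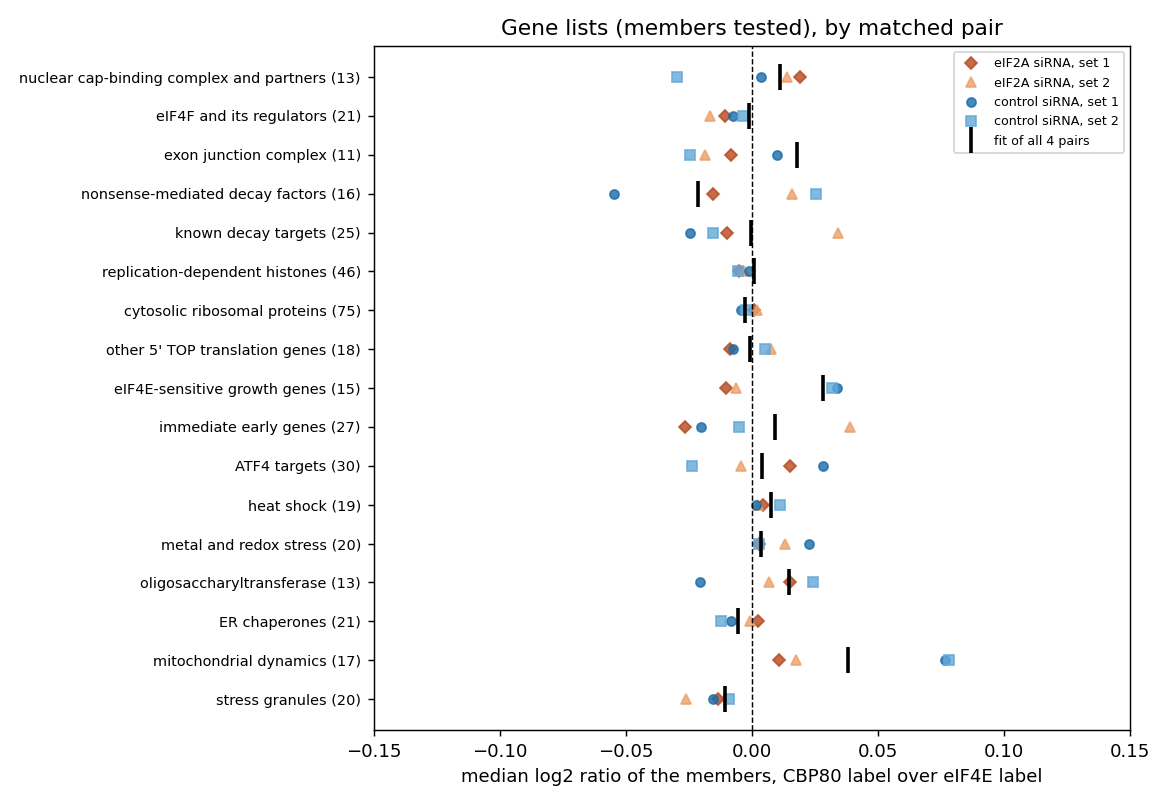
Median log2 ratio of CBP80 over eIF4E for the tested members of 17 gene lists, in each pair (coloured points) and in the fit of all 4 pairs (black bars), with the number of members tested in brackets. All medians of the fit lie between -0.02 and 0.04, and no pair's median exceeds 0.08.

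The reads outside coding sequences differed between the labels in a small and repeated way. Among uniquely placed reads, those in no coding sequence made up 51.0% with CBP80 and 51.1% with eIF4E in eIF2A siRNA set 1, and 42.2% with CBP80 and 42.4% with eIF4E in set 2. In control siRNA set 1 they made up 39.9% with CBP80 and 40.1% with eIF4E, and in set 2 35.2% with CBP80 and 35.3% with eIF4E. CBP80 was lower in 4 of 4 pairs, with differences of -0.146 to -0.196 percentage points and a mean of -0.171 ± 0.0269 points (SD, n = 4 pairs). The 95% counting interval excluded 0 in each pair. An exact two-sided sign-flip test over the 4 pairs gave p = 0.125, the smallest that 4 pairs can give. Alignments of reads with more than 1 place made up 78.0% to 83.6% of all alignments counted with CBP80 and 78.1% to 83.7% with eIF4E, again lower with CBP80 in 4 of 4 pairs (mean difference -0.0934 ± 0.0231 points, SD, exact p = 0.125). The share of ambiguous reads differed by -0.00072 points on average (exact p = 0.375). The pairs differed from each other by far more than the labels did. Which RNAs these reads come from was not analysed here.

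**Figure D5:**
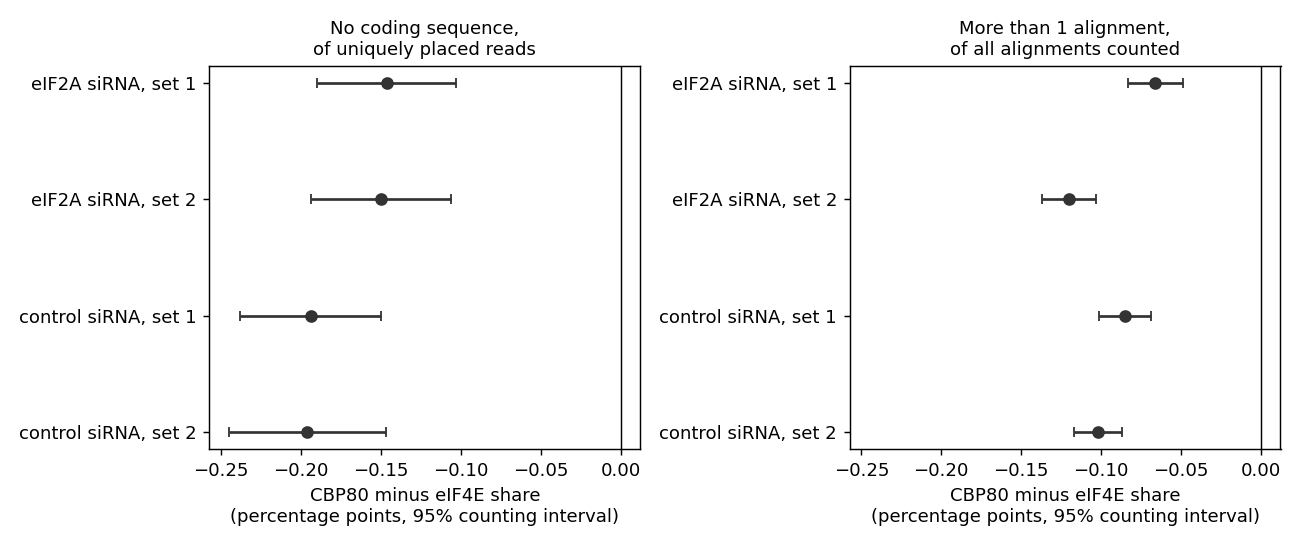
CBP80 minus eIF4E share in percentage points for uniquely placed reads in no coding sequence (left) and for alignments of reads with more than 1 place (right), 1 point per pair with its 95% counting interval. All 8 differences lie below 0. The intervals on the right treat alignments as independent, though 1 read can give several, so they may be too narrow.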

How the data were processed

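Ribosome-protected fragments were measured in the 8 HEK293T libraries. The values the authors deposited are raw read counts for each coding sequence, 1 RefSeq transcript to a row. TRIzol extraction was followed by library preparation with the TruSeq small RNA kit of Illumina, per the labels' protocols. Per the submitters' processing notes, cutadapt, STAR 2.5.2b and the build hg19 were used. How reads were counted, with which strand setting, and whether rRNA was filtered is not given in the sources used here. Without strand, reads of a gene and an overlapping antisense gene cannot be told apart. Rows that name no gene held 87.5% to 89.5% of each library's counts, mostly reads with more than 1 alignment, and stayed out of library sizes and gene tests. Genes with near-identical copies are therefore undercounted. Of 19305 accessions, 18888 were named through RefSeq's GRCh38.p14 table, used for names only, and 7 symbols have 2 accessions, kept separate.

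Groups and pairs came from the titles. The test of counts was edgeR 4.0.16 in R 4.3.3 (filterByExpr, TMM, estimateDisp, robust glmQLFit with legacy = FALSE, glmQLFTest) and Benjamini-Hochberg adjustment at 0.05, with the pair as a block. The common dispersion was 9.77e-05, with 3 residual degrees of freedom and a median prior of 86.9. The pairing holds in the data: over 6626 genes of 20 CPM or more, CBP80 and eIF4E libraries of the same set deviated together from their group means (r = 0.756 with eIF2A siRNA and 0.652 with control siRNA). CPM are counts scaled to 1000000 coding reads, 3 reads are 0.520 to 0.693 CPM, and pair ratios on the log2 scale used a pseudocount of 0.5. Intervals are 95% and cover counting error only. The scripts were tested on simulated data.

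Alternatives were another scaling, other filters, the 20 most abundant genes left out, DESeq2 1.42.0, edgeR's legacy fit, counting error only (a dispersion of 0), no block, and each pair left out. A quasi-dispersion of at least 1 was chosen after seeing the data. The genes named are the called genes, the 10 of smallest p in each direction and those called in any single-siRNA, interaction or counting-error test. They also include NCBP1, NCBP2, EIF4E, EIF2A, TUSC3, MAGT1 and RHOT1, and up to 4 members of smallest p in each of 17 lists. The 6 most abundant genes were added. So were, in each of 6 expression ranges, the 2 genes of largest difference relative to counting error over the 4 pairs. The libraries and lists were chosen with earlier results of these data known. The lists got no test of their own. Some genes that this rule names are not reported here. mRNA-seq was not analysed here, so a footprint count reflects mRNA level and translation together.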

Additional observations from a re-analysis of the deposited data

Results flagged for a closer look

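In 6 of 95 sets of 4 pair ratios tested, 1 pair lay far from the other 3 by Dixon's test, which chance does in about 1 in 20 sets. The values are log2 ratios of CBP80 over eIF4E. OR4K15 had -0.48 in control siRNA set 1, where it had 2 reads with CBP80 and 3 with eIF4E, against -3.40, -3.39 and -3.71 in eIF2A siRNA sets 1 and 2 and control siRNA set 2. EIF4E had 0.44 in control siRNA set 2 and -0.26 to -0.15 in the others. KLF6, an immediate early transcription factor gene, had 0.42 in eIF2A siRNA set 2 and 0.06 to 0.12 in the others. PNN, an exon junction partner gene, had -0.050 in control siRNA set 2 and 0.05 to 0.06 in the others. TIAL1, a stress granule gene, had -0.14 in control siRNA set 2 and -0.06 to -0.05 in the others. The histone gene H3C12 had -0.0061 in control siRNA set 2 and -0.10 to -0.09 in the others. 4 of the 6 were in control siRNA set 2, the pair with the shallowest library. Only OR4K15 of these genes passed the pooled test.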

How the results depend on the processing

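Every setting tried kept the direction of the 5 called genes where they were tested. The pooled count of 5 was 2 with a mean count of at least 50 (TUSC3 and TMEM259, the other 3 being too low to test), 2 by DESeq2 (TUSC3 and HSF5) and 1 with no replicate block (HSF5). With each pair left out in turn it was 2 to 5, the 2 (TUSC3 and HSF5) being without eIF2A siRNA set 2. With eIF2A siRNA alone the count of 4 was 1 with a mean count of at least 50, 0 by DESeq2 and 0 without the block, and with control siRNA alone the count of 2 was 1, 0 and 0. At an unadjusted p under 0.05, DESeq2 had 17 genes in the pooled fit, 5 with eIF2A siRNA and 2 with control siRNA. The fit without the block had 112, 61 and 104. The interaction count stayed at 0 in all 10 alternatives run. The chi-square of eIF2A siRNA set 2 was 1.02 with a minimum of 5 reads and 1.02 without the called genes, with p = 0.0514 and 0.102. EEF2 was called by edgeR's legacy fit alone (adjusted p = 0.000549). 6 uncalled genes reported here changed sign when a pair was left out: EIF4E (-0.19 to 0.012), EIF4G1 (-0.0023 to 0.029), WARS1 (-0.020 to 0.12), OSTC (-0.022 to 0.082), RPS3 (-0.0055 to 0.0030) and DDX5 (-0.0068 to 2.74e-05). Depth limits HSF5, OR4K15 and SHISA8, which had 0 to 5 reads in each CBP80 library.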
